A study of Mus musculus with 44 samples.

Results

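TNFΔARE mice given an inhibitor of the kinase MK2 were set against wild-type littermates given the same inhibitor, so that genotype differed while the drug was held constant. The comparison used 6 RNA-seq libraries of TNFΔARE intestine and 5 of wild-type intestine, 11 of the 44 libraries of a study of mouse models of inflammatory bowel disease. TNFΔARE mice were heterozygous (Tnf ΔARE/+) and labelled inflamed. Their littermates (Tnf +/+) were labelled uninflamed. All were C57BL/6 mice assigned at random to a treatment at 16 weeks of age. Both groups received ATI-450 at 3 mg/kg and a second dose 16 h later, and tissue was taken 90 min after that dose per the sample labels, although the series description speaks of a longer treatment. Vehicle groups of the same 2 genotypes (5 TNFΔARE and 5 wild-type libraries) were used to estimate the batch effect and to compare the genotype difference between treatments. The labels give the tissue as intestine, from a protocol that names distal colon and ileum, and do not say which segment each library came from. They do not state that each library is a separate animal, so p-values measure the spread between these libraries.

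The batch design limits every fold change that follows. Replicate 1 of the 6 TNFΔARE inhibitor libraries came from batch 2, together with all 5 wild-type inhibitor libraries. Replicates 2 to 6 came from batch 3, which held no wild-type library. The model therefore took the batch effect from TNFΔARE mice alone, and replicate 1 carried a least-squares weight of 0.592 in the fold change, against 0.0816 for each of the other TNFΔARE inhibitor libraries. Replicate 5 of the TNFΔARE vehicle group, the only vehicle library of batch 3, carried a weight of -0.408. Below, where a call was lost in batch 2 alone (1 TNFΔARE inhibitor library) or without replicate 1 of the TNFΔARE inhibitor group, that adjusted p follows the main one. For a few genes the fold change of the 5 batch 3 libraries against wild type of batch 2 is given too. Genes named without an adjusted p carry no such mark, and for them only the count of their list shows lost calls.

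TNF is a cytokine made above all by macrophages and other immune cells, and it drives chronic inflammation of the gut by way of NF-κB. The 3′ end of its mRNA carries an AU-rich element, on which ZFP36 (tristetraprolin) and related proteins act to shorten the life of the mRNA and to limit its translation. The p38 kinase activates MK2, which phosphorylates ZFP36 and so relieves this brake. Mice without the element overproduce TNF and develop an ileitis that resembles Crohn's disease together with arthritis. In the GENCODE reference transcript of Tnf the densest AU-rich run lies in the fourth exon, past the stop codon in the 3′ untranslated region, on the minus strand at chr17:35199679-35199708 (GRCm38). It holds 5 copies of the core pentamer ATTTA in 30 bases, some of them overlapping, and is shown because the genotype is defined by loss of the Tnf AU-rich element. The labels do not give the breakpoints of the deletion.
Tnf AU-rich run, ATTTA copies in capitals: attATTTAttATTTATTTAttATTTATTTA

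Library totals ran from 5.80 to 11.8 M counts in the TNFΔARE inhibitor group (median 8.42 M) and from 10.5 to 12.6 M counts in the wild-type inhibitor group (median 11.8 M). Small intestinal transcripts were present in all 11 libraries. In a transcript of the colon, 4 of the TNFΔARE inhibitor libraries stood apart. Car1, a carbonic anhydrase of colonocytes, read 36.8, 273, 248 and 64.4 CPM (counts scaled by library size to a total of 1000000) in replicates 2, 3, 4 and 6, and 0.463 and 0.160 CPM in replicates 1 and 5. In the wild-type inhibitor libraries it read 0, 0.105, 0.379, 0 and 5.93 CPM. In a wider list of 16 tested colonocyte genes, 3 were higher and 3 lower (18.75% each, beside 7.23% and 4.37% of all genes tested). The list's median log2 fold change was -0.03, in a fit that put the largest weight on replicate 1. Summed, that list stood at 1318 to 2154 CPM in TNFΔARE and 2643 to 4836 CPM in wild type. Within TNFΔARE it read 1799, 2154, 1805 and 1729 CPM in replicates 2, 3, 4 and 6, and 1425 and 1318 CPM in replicates 1 and 5. The mean log2 CPM of its members was 4.87, 5.57, 5.23 and 4.88 in replicates 2, 3, 4 and 6. That mean was 4.14 and 4.03 in replicates 1 and 5, and 4.42 to 4.96 in wild type. Within TNFΔARE the list was thus higher where Car1 was high. Hoxb13, a homeobox gene of the hindgut, was too low to pass the count filter. List counts below are followed by those without the 7 TNFΔARE libraries, of either treatment, in which Car1 read at least 10 CPM, where they differ by over 1.5 times. That fit kept replicate 5 of the TNFΔARE inhibitor group as its only batch 3 library, which the batch effect absorbed. Its fold change then rested on replicate 1, as in batch 2 alone, so it is no separate check on a share of colon.

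Of 14370 genes tested, 1667 differed between TNFΔARE and wild type under the inhibitor (11.6%; edgeR quasi-likelihood F-test, two-sided, Benjamini-Hochberg adjusted p under 0.05 over all genes tested). Higher in TNFΔARE were 1039 genes (7.23%) and lower were 628 (4.37%). A fold change of at least 2 was reached by 915 of the higher and 394 of the lower genes, and the median log2 fold change was 1.87 in the higher and -1.16 in the lower genes, against -0.01 over all genes tested. Levels in the 6 TNFΔARE libraries lay wholly above the 5 wild-type libraries for 1811 of all genes tested (12.6%) and wholly below them for 1432 (9.97%). Replicate 1, the TNFΔARE library that shared the wild-type batch, lay beyond the wild-type range on the called side for 1039 of the 1039 higher and 621 of the 628 lower genes. Over all genes tested it lay above the wild-type range for 26.3% and below it for 22.6%. Since replicate 1 carried the largest weight in the fold change behind the calls, its place among called genes is no separate support for them. Counts depended on the batch treatment: 368 genes were called in batch 2 alone (319 higher, 49 lower), 4374 without a batch term (2321 higher, 2053 lower) and 310 without replicate 1 of the TNFΔARE inhibitor group. Without the libraries that held Car1, which left the fold change to replicate 1 as in batch 2 alone, 298 genes were called (245 higher, 53 lower).

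Tnf itself was the first check of the labels, and it separated the genotypes in every library. It read lowest 13.2, median 26.9 and highest 31.4 CPM in the 6 TNFΔARE libraries, against 0.331, 1.16, 0.284, 1.89 and 2.29 CPM in wild type. The lowest TNFΔARE library was several times above the highest wild-type library, and the groups did not overlap. The difference was log2 fold change 5.08, SE 0.56, adjusted p = 1.13e-05, at 4.66 in batch 2 alone and 4.24 for the batch 3 libraries. Gene counts do not separate the mutant from the normal allele. Among 11 tested genes of TNF, the lymphotoxins and their receptors, 2 rose (18.2%, beside 7.23% of all genes tested) and none fell. The second was Tnfrsf1b, which encodes TNF receptor 2 of immune and endothelial cells. It read lowest 51.7, median 72.1 and highest 80.5 CPM in TNFΔARE mice and 17.98, 14.02, 9.66, 18.1 and 11.5 CPM in wild type, with no overlap (log2 fold change 2.46, SE 0.33, adjusted p = 8.01e-05). Tnfrsf1a, which encodes the widely expressed TNF receptor 1, ranged over 127 to 173 CPM in TNFΔARE and 141 to 192 CPM in wild type (log2 fold change -0.01, SE 0.18, adjusted p = 0.985).

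**Figure D1:**
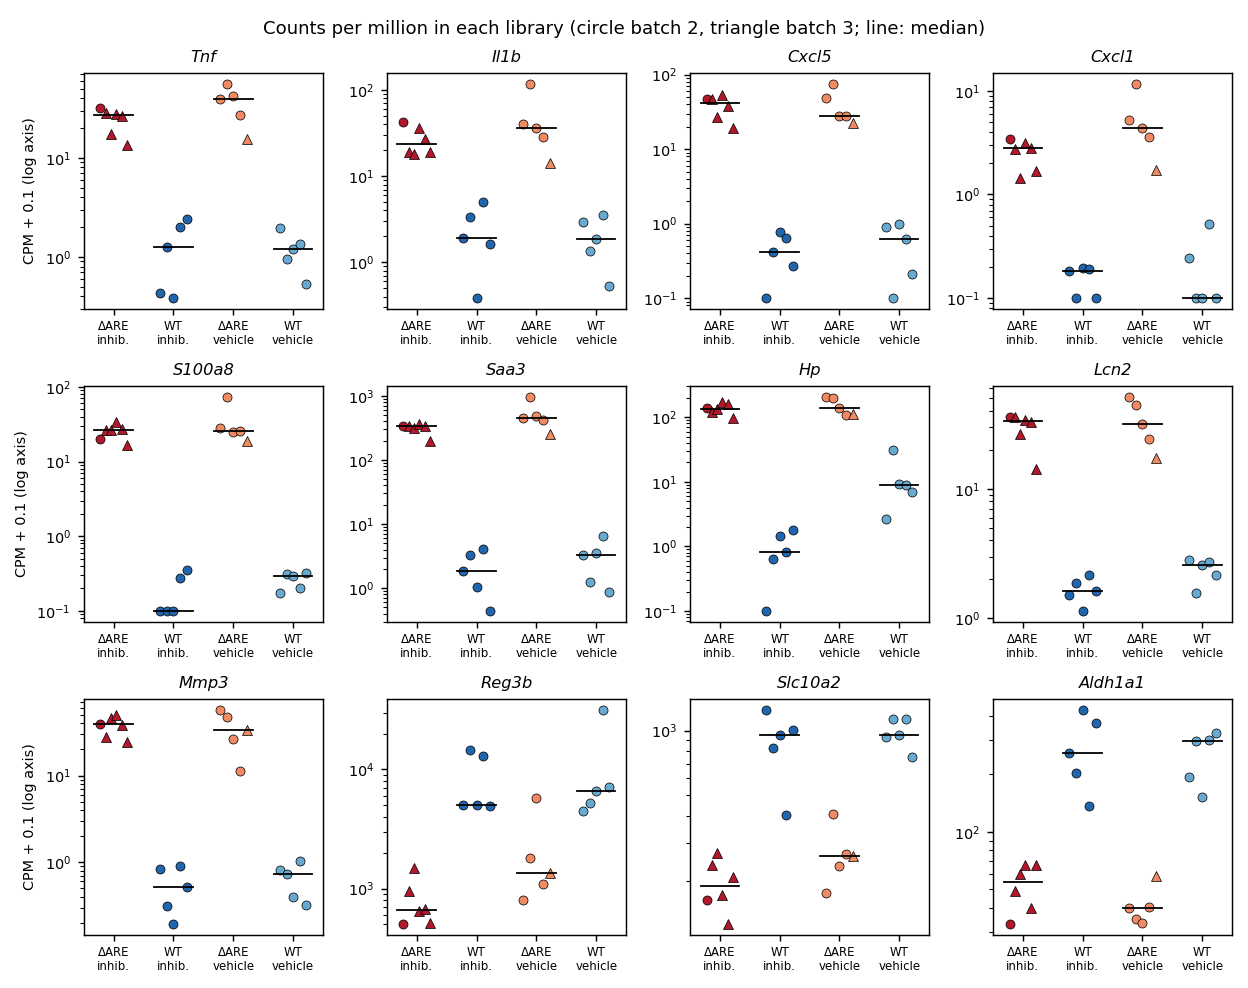
Each panel gives 1 gene, with CPM plus 0.1 on a log axis against the 4 groups, 1 point a library, circles for batch 2, triangles for batch 3 and a line at the group median. The first 9 genes sit higher in TNFΔARE than in wild type under either treatment, with Tnf at 13.2 to 31.4 CPM against 0.284 to 2.29 CPM under the inhibitor, and Reg3b, Slc10a2 and Aldh1a1 sit lower by their medians.

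The mRNAs of cytokines and early inflammatory genes, most of which carry AU-rich elements, were raised together. Of 25 list members, Tnf among them, 15 passed the count filter. Of these 13, again with Tnf, rose (86.7%, beside 7.23% of all genes tested) and none fell (median log2 fold change 2.34, against -0.01 over all genes tested). Il6 was among the 10 members below the filter. Il1b, which encodes interleukin-1β, read lowest 17.99, median 23.2 and highest 42.2 CPM in TNFΔARE and 1.82, 3.27, 0.284, 4.86 and 1.53 CPM in wild type. All 6 TNFΔARE values lay above all 5 wild-type values (log2 fold change 4.63, SE 0.72, adjusted p = 0.000322; 4.13 in batch 2 alone). Il1a, which encodes interleukin-1α, averaged 5.38 ± 1.75 CPM in TNFΔARE (SD, n = 6) and 0.630 ± 0.353 CPM in wild type (SD, n = 5) (log2 fold change 3.88, SE 0.53, adjusted p = 9.42e-05). Its antagonist Il1rn rose as well, at lowest 52.6, median 84.4 and highest 117 CPM in TNFΔARE and 3.40, 3.37, 1.71, 3.78 and 2.97 CPM in wild type (log2 fold change 5.71, SE 0.52, adjusted p = 1.42e-06). The decoy receptor gene Il1r2 had a log2 fold change of 3.17 (adjusted p = 0.000259) and the interleukin-33 receptor gene Il1rl1 of 2.52 (adjusted p = 0.000315). In all, 7 of 13 tested genes of the interleukin-1 family rose (53.8%, beside 7.23% of all genes tested) and none fell. Ptgs2, which encodes the inducible cyclooxygenase, read lowest 4.32, median 6.90 and highest 8.88 CPM in TNFΔARE and 5.14, 1.90, 1.52, 2.52 and 2.80 CPM in wild type, with 1 wild-type library inside the TNFΔARE range (log2 fold change 1.62, SE 0.43, adjusted p = 0.0173, but 0.208 in batch 2 alone and 0.163 without replicate 1). Of the AU-rich list, the number called was 6 in batch 2 alone, 7 without replicate 1 and 6 without the libraries that held Car1.

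Neutrophil transcripts gave the largest change of any list with more than 5 tested members. Of 28 markers, 19 passed the filter, and 15 of these rose (78.9%, beside 7.23% of all genes tested) and none fell (median log2 fold change 4.54, also with Clec4d at its bound). S100a8 and S100a9 encode the subunits of calprotectin, the antimicrobial protein of neutrophils that is measured in stool as a sign of gut inflammation. S100a8 read lowest 16.5, median 26.1 and highest 33.5 CPM in TNFΔARE, against 0, 0, 0, 0.180 and 0.254 CPM in wild type, where 3 libraries had no count (log2 fold change 8.18, SE 0.66, adjusted p = 7.48e-07). S100a9 read lowest 9.93, median 26.6 and highest 35.4 CPM in TNFΔARE and 0, 0.105, 0, 0.0900 and 0.0847 CPM in wild type. Its 5 wild-type libraries held 3 counts in all, so the fold is given as a ratio of summed counts, 483 (95% exact interval 165 to 2344), which covers counting error only (adjusted p = 1.25e-06). Neither gene overlapped between the groups. The receptor genes Csf3r, for the growth factor G-CSF, and Cxcr2, for the chemokines of the CXCL1 to CXCL5 group, rose with them. Csf3r read lowest 17.99, median 28.05 and highest 49.97 CPM in TNFΔARE and 0.829, 1.90, 0.853, 1.08 and 1.10 CPM in wild type (log2 fold change 5.13, SE 0.43, adjusted p = 1.13e-06). Cxcr2 averaged 12.1 ± 5.29 CPM in TNFΔARE and 0.762 ± 0.279 CPM in wild type (SD, n = 6 and n = 5; log2 fold change 4.54, SE 0.48, adjusted p = 7.77e-06). Clec4d, which encodes a C-type lectin of neutrophils and inflammatory monocytes, read lowest 9.41, median 13.96 and highest 20.9 CPM in TNFΔARE and 0 in all 5 wild-type libraries, at least 263-fold higher against a floor of 3 counts over the wild-type group (adjusted p = 3.41e-05). Trem3, Fpr2 and the surface protein gene Cd177 rose too, Cd177 at 183 ± 54.6 CPM in TNFΔARE and 17.3 ± 11.5 CPM in wild type (SD; log2 fold change 3.64, SE 0.66, adjusted p = 0.0012, but 0.109 without replicate 1). The granule genes Mpo, Elane, Camp and Ngp and the surface marker gene Ly6g of the same list were below the count filter, as were Mmp8, Stfa2, Stfa2l1 and Stfa3. Summed over the list, neutrophil markers made up 331 to 616 CPM in TNFΔARE and 19.04 to 50.9 CPM in wild type. More cells of a type and more RNA per cell cannot be told apart in whole tissue. With batch 2 alone 14 of 21 tested neutrophil markers were higher, and without the libraries that held Car1 14 were.

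Chemokines that draw neutrophils were raised beside their receptor. Of 10 neutrophil-attracting chemokines and growth factors 5 were tested and 4 rose (80%, beside 7.23% of all genes tested). Cxcl5 (chr5:90759360-90761624, GRCm38), a chemokine made mainly by epithelial cells in mice, read lowest 19.2, median 41.8 and highest 53.9 CPM in TNFΔARE and 0, 0.316, 0.663, 0.540 and 0.169 CPM in wild type (log2 fold change 7.37, SE 0.68, adjusted p = 1.67e-06). Cxcl1 (chr5:90891241-90893115) read lowest 1.34, median 2.69 and highest 3.33 CPM in TNFΔARE and 0.0829, 0, 0.0947, 0.0900 and 0 CPM in wild type, a ratio of summed counts of 44.4 (95% exact interval 14.9 to 218) from 134 against 3 counts (adjusted p = 0.000182). Cxcl2 (chr5:90903871-90905938) read lowest 0.755, median 1.06 and highest 1.76 CPM in TNFΔARE and 0, 0.105, 0, 0.180 and 0 CPM in wild type, a ratio of 19.9 (95% exact interval 6.48 to 99.1) from 60 against 3 counts (adjusted p = 0.00305, but 0.089 in batch 2 alone). None of the 3 genes overlapped between the groups. Csf1, which encodes the growth factor of macrophages, averaged 36.8 ± 8.68 CPM in TNFΔARE and 7.05 ± 1.83 CPM in wild type (SD; log2 fold change 2.54, SE 0.43, adjusted p = 0.000742, but 0.0837 without replicate 1). Il17a did not pass (log2 fold change 2.06, SE 1.21, adjusted p = 0.342), and Csf3, Csf2, Cxcl3, Ppbp and Il17f were below the filter. Cxcl1, Cxcl2 and Cxcl5 lie close together on chromosome 5. The start regions of Cxcl1 and Cxcl2 are shown because both genes rose and are known targets of NF-κB. Each line gives the 250 bases before the gene start from RefSeq (GRCm38.p6, plus strand), with matches to the NF-κB consensus decamer in capitals, searched on both strands. The gene coordinates above are from GENCODE, and both windows end a little past those starts.
Cxcl1, chr5:90890995-90891244: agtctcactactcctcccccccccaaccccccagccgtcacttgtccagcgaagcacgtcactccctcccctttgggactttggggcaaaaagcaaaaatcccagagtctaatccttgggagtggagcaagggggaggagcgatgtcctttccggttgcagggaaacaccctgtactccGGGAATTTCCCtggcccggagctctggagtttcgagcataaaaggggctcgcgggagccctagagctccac
Cxcl2, chr5:90903649-90903898: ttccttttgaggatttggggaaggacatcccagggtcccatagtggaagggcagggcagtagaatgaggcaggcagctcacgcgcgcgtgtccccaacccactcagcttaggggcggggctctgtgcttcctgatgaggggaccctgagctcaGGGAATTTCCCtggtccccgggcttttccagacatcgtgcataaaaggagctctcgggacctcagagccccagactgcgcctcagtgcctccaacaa
In both windows the capitals are 2 overlapping matches, on opposite strands, that share the run GGGAATTTCCC. The first base lay 71 bases before the RefSeq start in Cxcl1 and 97 in Cxcl2. Such a match is a description of the letters and not evidence of a bound site. A match was found in 2225 of 27025 promoter windows of that table (8.23%), in 1163 of the 10749 windows whose genes were tested (10.8%), in 111 of 741 windows of genes that were higher in TNFΔARE (15.0%) and in 47 of 485 of genes that were lower (9.69%). The windows of Tnf, Il1b, Saa3 and Lcn2 held no match to this consensus.

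Monocyte and macrophage genes rose with the neutrophil genes. Of 21 tested markers 15 rose (71.4%, beside 7.23% of all genes tested) and 1 fell (4.76%, beside 4.37%), with a median log2 fold change of 1.73. The number that rose was 9 in batch 2 alone, 7 without replicate 1 and 8 without the libraries that held Car1. Lyz2, which encodes the lysozyme of myeloid cells, read lowest 1454, median 2327 and highest 2726 CPM in TNFΔARE and 139.8, 279, 61.3, 455 and 74.9 CPM in wild type (log2 fold change 3.89, SE 0.66, adjusted p = 0.000672, but 0.0596 without replicate 1). Cd14, which encodes the co-receptor for bacterial lipopolysaccharide, read lowest 38.1, median 60.7 and highest 68.96 CPM in TNFΔARE and 9.11, 10.1, 7.39, 10.7 and 8.81 CPM in wild type (log2 fold change 3.03, SE 0.27, adjusted p = 1.25e-06; 2.74 in batch 2 alone and 2.60 for the batch 3 libraries). In both genes the lowest TNFΔARE library lay above the highest wild-type library. Csf1r, which encodes the receptor for the growth factor CSF1, averaged 299.8 ± 79.5 CPM in TNFΔARE and 36.3 ± 10.6 CPM in wild type (SD; log2 fold change 2.98, SE 0.37, adjusted p = 3.10e-05). C1qa, C1qb and C1qc, complement genes of tissue macrophages, had log2 fold changes of 2.55, 2.45 and 2.30. The member that fell was Mertk, which encodes a receptor for the uptake of dying cells. It read lowest 38.3, median 48.5 and highest 58.8 CPM in TNFΔARE and 89.6, 70.8, 111, 49.2 and 134 CPM in wild type, with overlapping ranges (log2 fold change -1.15, SE 0.32, adjusted p = 0.0245, but 0.355 in batch 2 alone and 0.134 without replicate 1). The summed list stood at 2511 to 4325 CPM in TNFΔARE and 298 to 838 CPM in wild type. Of 12 tested CC chemokines 3 rose, namely Ccl2, Ccl8 and Ccl9, with 1 in batch 2 alone, 1 without replicate 1 and 1 without the libraries that held Car1. The share of CC chemokines that rose was 25%, beside 7.23% of all genes tested. Summed, the CC chemokine list was lower in TNFΔARE, at 779 to 908 CPM, than in wild type, at 950 to 1572 CPM. Ccl2, the main attractant of monocytes, read lowest 7.04, median 8.82 and highest 10.5 CPM in TNFΔARE and 0.249, 0.211, 0.189, 0.810 and 0.254 CPM in wild type (log2 fold change 4.94, SE 0.65, adjusted p = 6.50e-05).

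Genes by which vessels capture white blood cells, and genes of matrix breakdown, were also higher. The shares called higher were 50% and 63.2% of those tested, beside 7.23% of all genes tested. Icam1, Vcam1, Selp and Madcam1 rose among 8 tested adhesion genes, with 2 in batch 2 alone, 0 without replicate 1 and 1 without the libraries that held Car1. Icam1 read lowest 40.7, median 61.6 and highest 86.4 CPM in TNFΔARE and 11.02, 16.97, 5.78, 19.3 and 6.52 CPM in wild type (log2 fold change 2.78, SE 0.49, adjusted p = 0.000984, but 0.0694 without replicate 1). Of 19 tested genes of matrix metalloproteinases and stromal inflammation 12 rose and none fell, with 8 in batch 2 alone, 7 without replicate 1 and 7 without the libraries that held Car1. Mmp3, stromelysin-1, made by fibroblasts exposed to TNF and interleukin-1, read lowest 24.1, median 38.8 and highest 50.2 CPM in TNFΔARE and 0.746, 0.211, 0.0947, 0.810 and 0.424 CPM in wild type, without overlap. Its difference was nearly the same in every batch treatment (log2 fold change 6.36, SE 0.57, adjusted p = 1.25e-06; 6.32 in batch 2 alone and 6.29 for the batch 3 libraries). Chil1, which encodes a chitinase-like protein secreted in inflammation, averaged 13.6 ± 3.20 CPM in TNFΔARE and 0.293 ± 0.0877 CPM in wild type (SD; log2 fold change 5.78, SE 0.52, adjusted p = 1.25e-06). Mmp9, a gelatinase of neutrophils, had a log2 fold change of 3.45 (adjusted p = 1.57e-06) and the inhibitor gene Timp1 of 3.65 (adjusted p = 0.000853, but 0.0684 without replicate 1). Calls among collagen genes reached 13.3%, beside 7.23% higher of all genes tested. Of 15 collagen genes 2 rose, Col1a2 (log2 fold change 1.83, SE 0.49, adjusted p = 0.0183, but 0.14 in batch 2 alone and 0.418 without replicate 1) and Col5a2 (log2 fold change 1.60, SE 0.47, adjusted p = 0.0311, but 0.175 in batch 2 alone and 0.491 without replicate 1). Collagen calls numbered 0 in batch 2 alone, 0 without replicate 1 and 0 without the libraries that held Car1, and 12 for the batch 3 libraries against wild type.

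**Figure D2:**
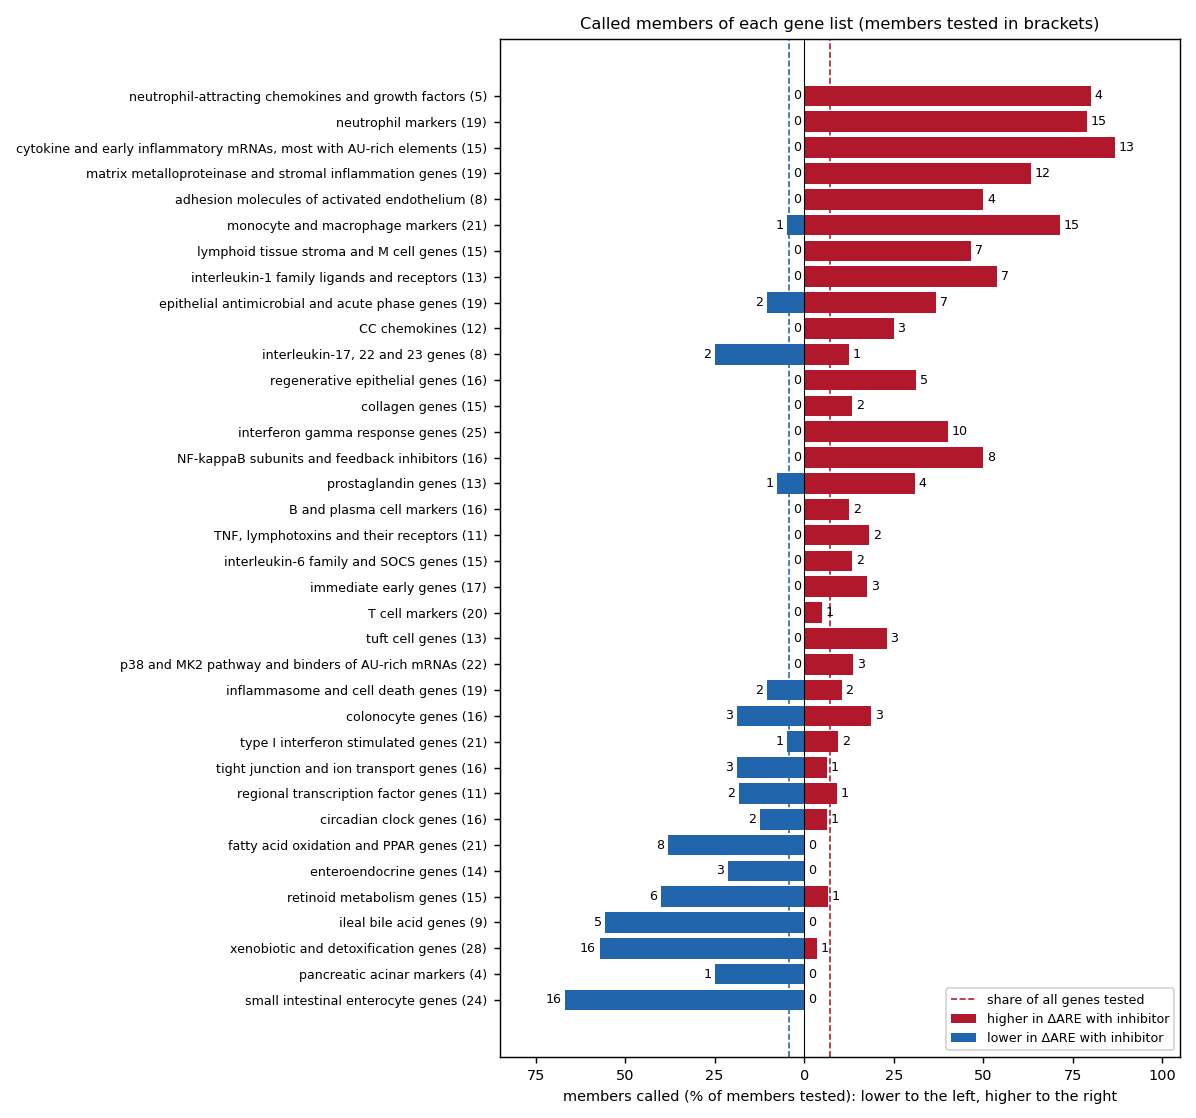
Horizontal bars give the share of tested members of each list that were called higher (right, red) or lower (left, blue) in TNFΔARE than in wild type under the inhibitor, ordered by the median fold change, with counts at the bar ends and dashed lines at the shares of all genes tested. Neutrophil markers (15 of 19 higher) and small intestinal enterocyte genes (16 of 24 lower) stand near opposite ends, and 12 lists with no called member are not drawn.

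Of 22 tested genes of the p38 and MK2 pathway, on which the drug acts, and of proteins that bind AU-rich mRNAs, 3 rose and none fell (median log2 fold change 0.15). That is 13.6% higher, beside 7.23% of all genes tested, and the number was 0 in batch 2 alone, 0 without replicate 1 and 0 without the libraries that held Car1. Mapkapk2, which encodes MK2, read lowest 116, median 133 and highest 149.5 CPM in TNFΔARE and 98.2, 98.2, 107, 93.3 and 101 CPM in wild type. The groups did not overlap, but the difference was small (log2 fold change 0.52, SE 0.15, adjusted p = 0.0344, but 0.481 in batch 2 alone and 0.109 without replicate 1). Dusp1, a phosphatase gene that switches p38 off, read lowest 12.96, median 15.9 and highest 19.1 CPM in TNFΔARE and 3.89, 4.64, 9.47, 7.92 and 7.03 CPM in wild type (log2 fold change 1.38, SE 0.36, adjusted p = 0.0154, but 0.192 in batch 2 alone and 0.24 without replicate 1). Mapk11, which encodes p38β, was the third (log2 fold change 1.70, SE 0.52, adjusted p = 0.0397, but 0.291 in batch 2 alone and 0.263 without replicate 1). The Mapk11 call was lost in 9 of its 13 alternatives, including the batch 3 libraries against wild type (0.67, adjusted p = 0.24). Zfp36, whose protein is a substrate of MK2, read lowest 8.94, median 16.6 and highest 24.1 CPM in TNFΔARE and 19.6, 21.1, 28.99, 20.4 and 25.6 CPM in wild type. The ranges overlapped and the difference did not pass (log2 fold change -1.01, SE 0.34, adjusted p = 0.0602). Activity of these kinases was not measured.

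Of 16 tested subunits and feedback inhibitors of NF-κB 8 rose (50%, beside 7.23% of all genes tested) and none fell. Tnfaip3, which encodes the ubiquitin-editing inhibitor A20, read lowest 76.1, median 97.7 and highest 111 CPM in TNFΔARE and 44.3, 65.6, 63.7, 53.04 and 56.1 CPM in wild type (log2 fold change 1.00, SE 0.20, adjusted p = 0.00291, but 0.068 in batch 2 alone and 0.108 without replicate 1). Nfkbie, an inhibitor of NF-κB, averaged 32.2 ± 6.57 CPM in TNFΔARE and 8.86 ± 4.24 CPM in wild type (SD; log2 fold change 2.32, SE 0.42, adjusted p = 0.0011, but 0.0582 without replicate 1). Tnip3, whose product binds A20, averaged 4.34 ± 2.15 CPM in TNFΔARE and 0.0767 ± 0.0866 CPM in wild type (SD; log2 fold change 6.14, SE 0.94, adjusted p = 0.000281). Nfkb2, Nfkbia, Rela, Tnip1 and Birc3 rose by less, with log2 fold changes of 1.79, 1.37, 0.65, 0.67 and 1.08, and not all of them kept the call without replicate 1. The number of the 16 called was 3 in batch 2 alone, 3 without replicate 1 and 2 without the libraries that held Car1.

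Interferon-induced genes were followed in a list for each type of interferon. Of 25 tested interferon γ response genes 10 rose and none fell, with 3 in batch 2 alone, 1 without replicate 1 and 2 without the libraries that held Car1. The 10 made up 40% of the genes tested in that list, beside 7.23% of all genes tested. Among the 10 were Cxcl9, a chemokine for T cells, and the guanylate-binding protein genes Gbp2, Gbp3, Gbp7 and Gbp9. Cxcl9 read lowest 13.6, median 41.4 and highest 44.2 CPM in TNFΔARE and 9.03, 13.1, 3.51, 11.8 and 6.10 CPM in wild type, and the groups did not overlap (log2 fold change 2.74, SE 0.58, adjusted p = 0.00412, but 0.0607 in batch 2 alone and 0.0712 without replicate 1). Gbp4 was called on counts in 2 of the 6 TNFΔARE libraries alone, with 0 in the other 4 and in all 5 wild-type libraries, and the call was lost when single libraries were left out. Of 21 type I interferon genes 2 rose and 1 fell. These shares, 9.52% and 4.76%, lay near the 7.23% and 4.37% of all genes tested, so the list as a whole did not stand out. The number that rose was 1 in batch 2 alone, 0 without replicate 1 and 1 without the libraries that held Car1, and the number that fell 0 in batch 2 alone, 1 without replicate 1 and 0 without the libraries that held Car1. Ifit2, an antiviral gene, had a log2 fold change of 1.85 (adjusted p = 0.00131, but 0.109 without replicate 1) and Bst2, which encodes tetherin, of 1.73 (adjusted p = 0.00575, but 0.13 in batch 2 alone and 0.0837 without replicate 1). Cmpk2, a mitochondrial nucleotide kinase gene of the same list, fell, at lowest 26.00, median 32.02 and highest 35.3 CPM in TNFΔARE and 61.7, 67.1, 115, 61.4 and 90.7 CPM in wild type (log2 fold change -1.37, SE 0.29, adjusted p = 0.00357, but 0.173 in batch 2 alone). The difference between the lists was not tested. Nlrp3, the inflammasome sensor gene of myeloid cells, rose (log2 fold change 3.63, SE 0.52, adjusted p = 0.000161), whereas Nlrp1b fell, at lowest 7.10, median 9.78 and highest 12.7 CPM in TNFΔARE and 18.98, 22.8, 25.5, 17.02 and 29.4 CPM in wild type (log2 fold change -1.53, SE 0.29, adjusted p = 0.00149, but 0.0632 in batch 2 alone). None of 10 MHC class II genes was called (median log2 fold change 0.43).

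Among lymphocyte markers, 1 of 20 for T cells (5%) rose and 2 of 16 for B and plasma cells (12.5%), beside 7.23% of all genes tested, and none of the 3 was called in batch 2 alone or without replicate 1. Without the libraries that held Car1 the T cell count was 0 and the B and plasma cell count 0. The T cell marker was Cd4, at 30.3 ± 6.00 CPM in TNFΔARE and 9.98 ± 3.85 CPM in wild type (SD; log2 fold change 1.45, SE 0.37, adjusted p = 0.0147, but 0.123 in batch 2 alone and 0.335 without replicate 1). Cd4 is also transcribed by some macrophages. The T cell list summed to 108 to 149 CPM in TNFΔARE and 61.3 to 211 CPM in wild type. Both of the others are plasma cell genes. Jchain, the joining chain of secreted IgA and IgM, read lowest 2359, median 3319 and highest 4328 CPM in TNFΔARE and 931, 1558, 329, 1514 and 559.6 CPM in wild type (log2 fold change 2.00, SE 0.61, adjusted p = 0.0381, but 0.305 in batch 2 alone and 0.228 without replicate 1). Tnfrsf17, which encodes the plasma cell receptor BCMA, had a log2 fold change of 1.78 (adjusted p = 0.0416, but 0.265 in batch 2 alone and 0.435 without replicate 1). Genes of lymphoid tissue stroma and M cells, which mark Peyer's patches and lymphoid aggregates, gave 7 higher of 15 tested, with 2 in batch 2 alone, 1 without replicate 1 and 1 without the libraries that held Car1, and summed to 949 to 1489 CPM in TNFΔARE and 171 to 515 CPM in wild type. Their part in the lymphocyte and chemokine values was not tested. The share of these stroma and M cell genes called higher was 46.7%, beside 7.23% of all genes tested. Tnfsf11, which encodes RANKL, the inducer of M cells, averaged 9.27 ± 4.32 CPM in TNFΔARE and 1.88 ± 1.65 CPM in wild type (SD; log2 fold change 3.33, SE 0.77, adjusted p = 0.00708, but 0.102 in batch 2 alone and 0.213 without replicate 1).

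Acute phase genes rose in the tissue, while the genes of 2 Reg3 lectins fell. Of 19 tested epithelial antimicrobial and acute phase genes 7 rose (36.8%, beside 7.23% of all genes tested) and 2 fell (10.5%, beside 4.37%). Summed, the list was lower in TNFΔARE, at 6223 to 8740 CPM, than in wild type, at 10688 to 25705 CPM. The number that rose was 5 in batch 2 alone, 5 without replicate 1 and 4 without the libraries that held Car1, and the number that fell 0 in batch 2 alone, 1 without replicate 1 and 0 without the libraries that held Car1. Saa3, serum amyloid A3, read lowest 196, median 334 and highest 366 CPM in TNFΔARE and 1.74, 3.16, 0.947, 3.96 and 0.339 CPM in wild type (log2 fold change 7.83, SE 0.67, adjusted p = 1.22e-06). Lcn2, which encodes lipocalin-2, a protein that withholds iron from bacteria, read lowest 14.02, median 33.5 and highest 36.03 CPM in TNFΔARE and 1.41, 1.79, 1.04, 2.07 and 1.53 CPM in wild type (log2 fold change 4.84, SE 0.37, adjusted p = 4.21e-07). Hp, haptoglobin, which binds free hemoglobin, read lowest 96.7, median 134 and highest 174 CPM in TNFΔARE and 0, 0.527, 1.33, 0.720 and 1.69 CPM in wild type (log2 fold change 7.52, SE 0.74, adjusted p = 3.34e-06). None of these 3 genes overlapped, and each was called in batch 2 alone, at 7.33, 4.46 and 7.26. Nox1, which encodes a superoxide-producing oxidase of the epithelium, rose as well (log2 fold change 5.44, SE 0.77, adjusted p = 0.000132). In the other direction, Reg3b, which encodes a bactericidal lectin, read lowest 505, median 660.4 and highest 1499 CPM in TNFΔARE and 5042, 14444, 4995, 13056 and 4962 CPM in wild type. The groups did not overlap (log2 fold change -3.41, SE 1.00, adjusted p = 0.0319, but 0.205 in batch 2 alone and 0.298 without replicate 1). The adjusted p was also 0.108 without replicate 5 of the TNFΔARE vehicle group. Reg3a also fell, at 17.5 ± 3.98 CPM in TNFΔARE and 121 ± 42.4 CPM in wild type (SD; log2 fold change -2.85, SE 0.50, adjusted p = 0.000985, but 0.0816 in batch 2 alone). Reg3g did not pass (log2 fold change -1.03, SE 0.89, adjusted p = 0.577), although its libraries did not overlap, at 610 to 1835 CPM in TNFΔARE and 2161 to 6889 CPM in wild type. Nor did Nos2 pass, which encodes the inducible nitric oxide synthase (log2 fold change 0.60, SE 0.63, adjusted p = 0.674). Among 16 tested regenerative epithelial genes 5 rose, Clu, Krt7, Anxa3, Anxa8 and Ccn2, with 3 in batch 2 alone, 2 without replicate 1 and 2 without the libraries that held Car1. These 5 were 31.25% of the list, beside 7.23% of all genes tested. Clu, clusterin, a marker of regenerating epithelium that stromal cells also make, read lowest 562, median 741 and highest 939.7 CPM in TNFΔARE and 70.4, 136, 39.04, 181 and 44.7 CPM in wild type (log2 fold change 3.35, SE 0.61, adjusted p = 0.00124, but 0.116 without replicate 1).

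Genes of ileal absorption were lower across several lists. Of 24 small intestinal enterocyte genes 16 fell (66.7%, beside 4.37% of all genes tested) and none rose (median log2 fold change -1.91). Enpep, an aminopeptidase of the brush border, read lowest 549, median 701 and highest 769.8 CPM in TNFΔARE and 2451, 2044, 3180.2, 1419 and 3194 CPM in wild type (log2 fold change -2.21, SE 0.26, adjusted p = 2.19e-05). Sis, which encodes sucrase-isomaltase, read lowest 746, median 1056 and highest 1416 CPM in TNFΔARE and 3826, 2656, 4971, 1773 and 3966 CPM in wild type (log2 fold change -2.06, SE 0.35, adjusted p = 0.000705, but 0.0771 in batch 2 alone). Slc5a1, the sodium-glucose transporter gene, averaged 907 ± 229 CPM in TNFΔARE and 2204 ± 609 CPM in wild type (SD; log2 fold change -1.72, SE 0.33, adjusted p = 0.00186, but 0.0573 in batch 2 alone and 0.0797 without replicate 1). In each of the 3 genes every TNFΔARE library lay below every wild-type library. Lct, which encodes lactase, was called with overlapping ranges (log2 fold change -2.87, SE 0.92, adjusted p = 0.0489, but 0.29 in batch 2 alone and 0.352 without replicate 1). Summed, the list stood at 12277 to 18066 CPM in TNFΔARE and 29706 to 58171 CPM in wild type. The call count rests on the batch treatment: the number that fell was 3 in batch 2 alone, 7 without replicate 1 and 3 without the libraries that held Car1, and 21 for the batch 3 libraries. The list's median was -2.16 in batch 2 alone and -1.55 for the batch 3 libraries.

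Genes of bile acid handling, a function of the ileum, were lower too, with 5 of 9 tested genes lower (55.6%, beside 4.37% of all genes tested) and none higher. Bile acid calls numbered 2 in batch 2 alone, 3 without replicate 1 and 2 without the libraries that held Car1. Slc10a2, the ileal transporter that takes bile acids up from the lumen, read lowest 126, median 190.3 and highest 269.7 CPM in TNFΔARE and 1251, 827, 956, 404 and 1006 CPM in wild type, with no overlap (log2 fold change -2.29, SE 0.40, adjusted p = 0.000903). It was called in batch 2 alone (-2.49, adjusted p = 0.0409) and for the batch 3 libraries (-2.13, adjusted p = 0.000409). Slc51a, a subunit of the exporter at the basal side, fell (log2 fold change -1.77, SE 0.38, adjusted p = 0.00443, but 0.24 without replicate 1), as did the bile acid receptor gene Nr1h4 (log2 fold change -1.12, SE 0.31, adjusted p = 0.0216, but 0.149 in batch 2 alone and 0.273 without replicate 1) and the sterol transporter genes Abcg5 and Abcg8. Fgf15, the hormone gene that the receptor switches on, did not pass, at 94.4 ± 30.01 CPM in TNFΔARE and 24.3 ± 16.7 CPM in wild type (SD; log2 fold change 1.97, SE 0.70, adjusted p = 0.0765). In the 4 TNFΔARE libraries that held Car1, a share of colon and a loss of ileal transcripts cannot be told apart. In replicates 1 and 5, where Car1 was near 0, Slc10a2 read 163 and 126 CPM, below all 5 wild-type libraries. The labels do not give the segment of these libraries either, and its part in the values was not tested.

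**Figure D3:**
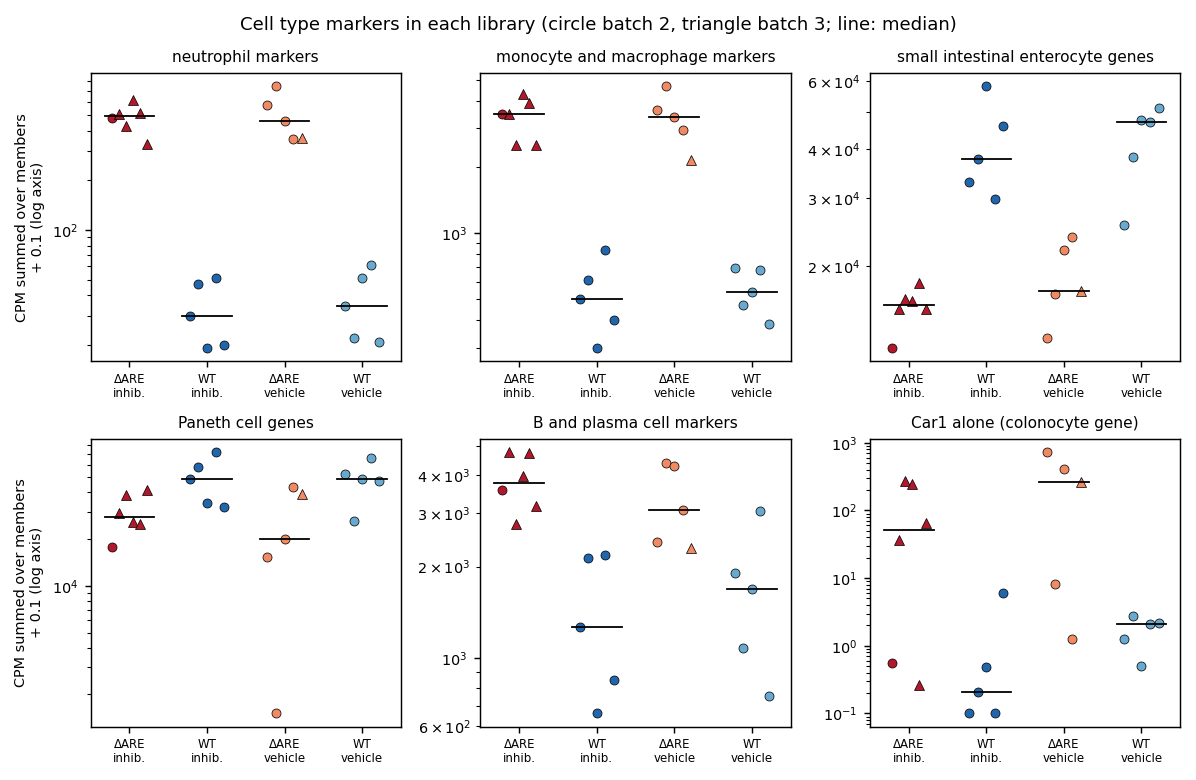
Panels give CPM summed over 5 marker lists, and Car1 alone, in each library of the 4 groups, on log axes with 0.1 added, circles for batch 2, triangles for batch 3 and a line at the median. Neutrophil markers sum to 331 to 616 CPM in TNFΔARE and 19.04 to 50.9 CPM in wild type under the inhibitor, and Car1 is above 10 CPM in 4 of the 6 TNFΔARE inhibitor libraries.

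Metabolic genes of the enterocyte were lower as well. Among 28 tested genes that handle foreign compounds and toxins, 16 were lower (57.1%, beside 4.37% of all genes tested) and 1 was higher (3.57%, beside 7.23%). Of 21 genes of fatty acid oxidation and PPAR signaling 8 fell (38.1%, beside 4.37% of all genes tested) and none rose. Cyp2d26, a cytochrome P450 gene, averaged 24.7 ± 11.5 CPM in TNFΔARE and 143 ± 96.6 CPM in wild type (SD; log2 fold change -3.05, SE 0.68, adjusted p = 0.00575, but 0.137 in batch 2 alone and 0.0942 without replicate 1). The gene that rose was the glutathione transferase gene Gstm1 (log2 fold change 0.75, SE 0.22, adjusted p = 0.0352, but 0.175 in batch 2 alone and 0.536 without replicate 1). Angptl4, a target of PPARs that inhibits lipoprotein lipase, read lowest 7.20, median 16.3 and highest 21.2 CPM in TNFΔARE and 74.2, 76.9, 82.7, 34.2 and 59.9 CPM in wild type (log2 fold change -2.49, SE 0.47, adjusted p = 0.00177, but 0.148 in batch 2 alone). Neither list kept a call in batch 2 alone or without the libraries that held Car1, and each kept 1 without replicate 1, with medians in batch 2 of -1.50 for xenobiotic and -0.74 for fatty acid genes. Of 15 retinoid genes 6 fell and 1 rose, and the number that fell was 1 in batch 2 alone, 3 without replicate 1 and 1 without the libraries that held Car1. These retinoid shares were 40% lower and 6.67% higher, beside 4.37% and 7.23% of all genes tested. Aldh1a1, which makes retinoic acid, read lowest 32.97, median 54.5 and highest 67.3 CPM in TNFΔARE and 258, 203, 433, 136 and 369 CPM in wild type. The highest TNFΔARE library was below the lowest wild-type library (log2 fold change -3.04, SE 0.39, adjusted p = 5.61e-05). Bco1, which splits carotene into vitamin A aldehyde, averaged 1.38 ± 0.438 CPM in TNFΔARE and 13.8 ± 9.36 CPM in wild type (SD; log2 fold change -3.59, SE 0.69, adjusted p = 0.00202, but 0.0946 in batch 2 alone and 0.0678 without replicate 1). Scarb1, a receptor gene for lipoproteins, was the member that rose (log2 fold change 1.28, SE 0.38, adjusted p = 0.0352, but 0.323 in batch 2 alone and 0.234 without replicate 1). Among the 5 lowest fold changes of named genes was Unc93a2, at 1.90 ± 0.671 CPM in TNFΔARE and 27.5 ± 14.5 CPM in wild type (SD; log2 fold change -4.60, SE 0.60, adjusted p = 5.93e-05).

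Among other epithelial lineages, none of 17 Paneth cell genes, 15 goblet cell genes, 13 stem cell and Wnt feedback genes, 20 cell cycle genes and 17 unfolded protein response genes was called. The Paneth list had a median log2 fold change of -1.55, with near-identical defensin genes whose reads the counting could split, and the goblet list of -0.24. Of 14 enteroendocrine genes 3 fell, Nts, Sst and Neurod1, or 21.4% beside 4.37% of all genes tested, with 0 in batch 2 alone, 0 without replicate 1 and 0 without the libraries that held Car1. Nts, neurotensin of the ileum, read lowest 30.1, median 31.3 and highest 34.7 CPM in TNFΔARE and 93.5, 141, 148, 118 and 98.3 CPM in wild type (log2 fold change -1.60, SE 0.48, adjusted p = 0.034, but 0.158 in batch 2 alone and 0.464 without replicate 1). Smooth muscle, enteric neuron and adipocyte lists held no called gene either, although the adipocyte list summed to 76.8 to 928 CPM in TNFΔARE and 71.1 to 298 CPM in wild type, a spread by library.

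**Figure D4:**
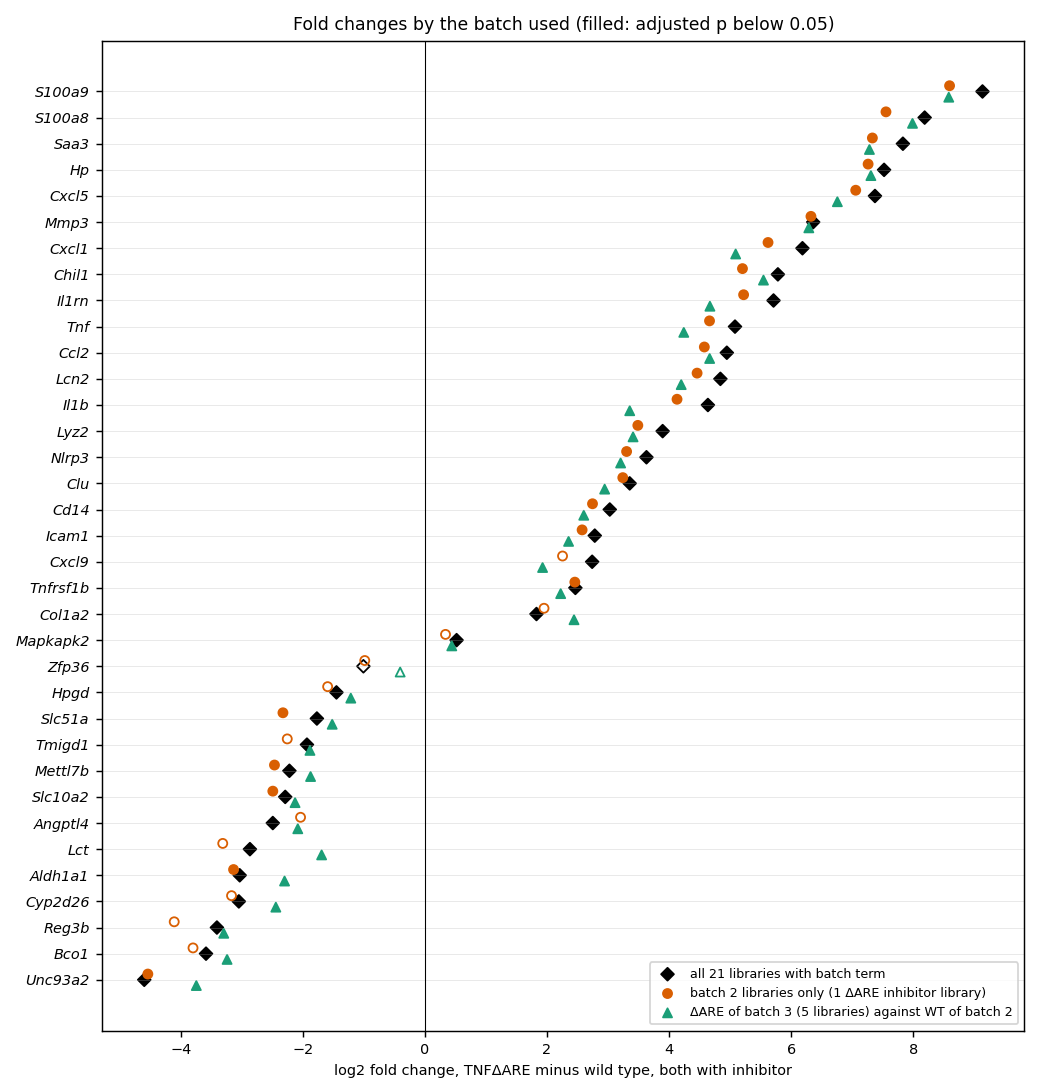
Log2 fold changes of 35 named genes, TNFΔARE minus wild type with the inhibitor, from all 21 libraries with a batch term (diamonds), batch 2 alone (circles) and the batch 3 TNFΔARE libraries against wild type of batch 2 (triangles), filled where the adjusted p is below 0.05. Each gene keeps its direction, from S100a9 at the top to Unc93a2 at the bottom, and 5 of the 13 lower genes are called in batch 2 alone. Fitted fold changes of S100a9 and Cxcl1, with 3 wild-type counts each, depend on the prior count.

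The genotype difference was then set against that under vehicle, to ask whether the inhibitor altered it. Of 14370 genes, 0 passed the interaction test (genotype effect with inhibitor minus genotype effect with vehicle), with 230 genes at an unadjusted p under 0.05. DESeq2 called 3 genes and limma-voom 0. With the vehicle, 2157 genes were called (15.0%), 1160 higher (8.07%) and 997 lower (6.94%). Both differences draw on the same TNFΔARE libraries through the batch term, so their values are set side by side without a count of shared genes. Tnf had a log2 fold change of 5.08 with the inhibitor and 5.08 with vehicle (difference -0.00296, SE 0.59). Il1b had 4.63 and 4.70 (difference -0.07, SE 0.88), and S100a8 had 8.18 and 7.71 (difference 0.48, SE 0.96). Standard errors of this size leave room for differences of 2-fold or more in either direction, so the test does not show that the effects were alike.

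The 5 genes with the smallest interaction p were Hp, Abcd2, Zfp36, Ddx46 and Gbp4, none of which passed adjustment by edgeR. Of the 3 genes that DESeq2 called, Hp was one (log2 difference 3.78, adjusted p = 0.0261 by DESeq2). Hp had an interaction of 3.75 (SE 0.86, adjusted p = 1). It ranged over 96.7 to 174 CPM in TNFΔARE with inhibitor and 0 to 1.69 CPM in wild type with inhibitor, and over 108 to 207 CPM in TNFΔARE with vehicle and 2.60 to 30.7 CPM in wild type with vehicle. The TNFΔARE ranges overlapped between treatments, while the wild-type ranges did not. Wild-type libraries also differed in the summed adipocyte list, at 71.1 to 298 CPM with inhibitor and 217 to 1649 CPM with vehicle. In TNFΔARE that list summed to 76.8 to 928 CPM with inhibitor and 110 to 431 CPM with vehicle. Its part in the Hp values was not tested. Zfp36 had an interaction of -1.35 (SE 0.38, adjusted p = 1). Its range was 8.94 to 24.1 CPM in TNFΔARE with inhibitor and 19.6 to 28.99 CPM in wild type with inhibitor, beside 14.8 to 36.6 CPM in TNFΔARE with vehicle and 14.3 to 21.8 CPM in wild type with vehicle. Abcd2, a peroxisomal fatty acid transporter gene, had log2 fold changes of 2.34 with inhibitor and -0.34 with vehicle (interaction SE 0.75).

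**Figure D5:**
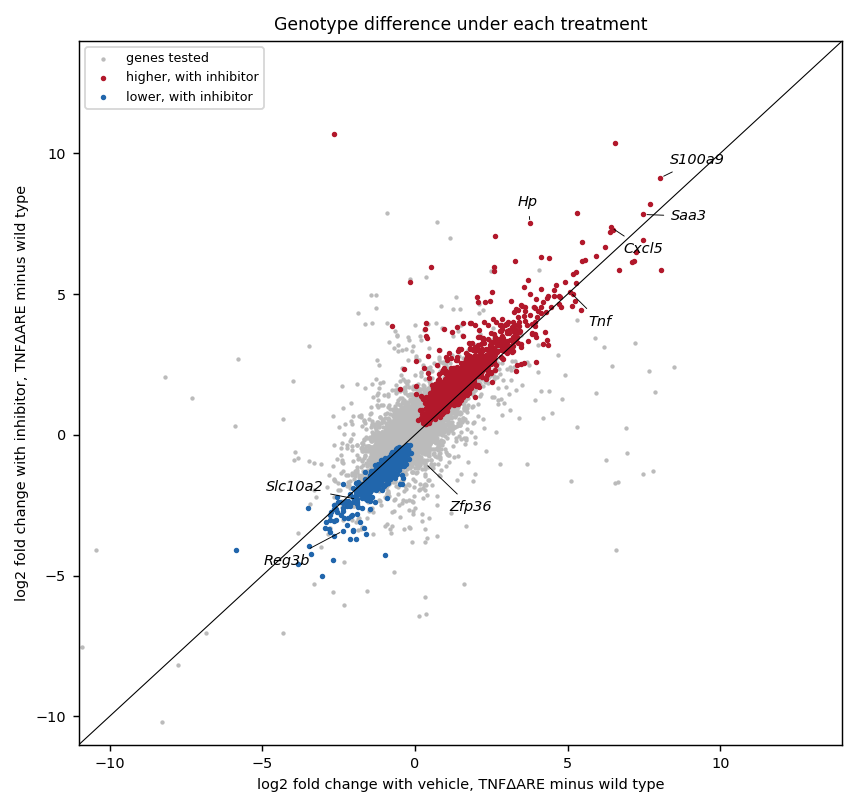
Each point is 1 of the genes tested, with the log2 fold change between TNFΔARE and wild type with inhibitor (vertical axis) against that with vehicle (horizontal axis), colored where called with inhibitor, with a line of equality and 1 gene beyond the axes. Hp lies above the line and Zfp36 below it, at interactions of 3.75 and -1.35, and the estimates on the axes share the libraries that set the batch term.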

How the data were processed

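RNA-seq libraries of mouse intestine were analysed from a table of genes by library, per the labels from poly-A selected RNA in a strand-marking library kit. Per the submitters' processing notes, the tools included Salmon 0.14.1 and DESeq2, on mm10 (GRCm38); no role is stated for either. The deposited table holds expected counts per gene, which the authors left without scaling, and these were rounded to whole numbers. A second deposited table holds a normalized signal per gene, made by the authors in a way not given in the labels, and it served an alternative on log2(signal + 1). Genes were filtered on counts with edgeR 4.0.16 (R 4.3.3), scaled by TMM, and fitted with a robust quasi-likelihood model with group and batch as terms over the 21 libraries of the TNFΔARE model, which share 1 estimate of the spread. Of 29720 genes, 8397 had 0 in every library and 14370 were tested, with Benjamini-Hochberg adjustment over all of them. P-values are two-sided and a gene is called at an adjusted p under 0.05. Fold changes are TNFΔARE minus wild type on the log2 scale, and levels are CPM on TMM-scaled library sizes. They are not per length, so levels were not compared between genes.

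Alternatives were RLE scaling, no count filter, no batch term, the replicate number as a block, batch 2 alone, the 2 groups alone, a fold-change minimum of 2, limma-voom (limma 3.58.1), the signal table, DESeq2 1.42.0 and each library left out in turn. A fit without the libraries that held Car1 was added after seeing the data. Scripts were tested on simulated data. The members and the 48 gene lists were chosen with earlier results of these data known. By rule the text names 16 fixed genes, from each list the 2 called members with the largest change (all where 3 or fewer are called) and the largest called change against the list's direction, at a mean CPM of at least 1, the 5 highest and 5 lowest called genes, and the 5 genes with the smallest interaction p. Other list members named were chosen after their values were seen. Intervals of count ratios cover counting error only. Where the 5 wild-type libraries held 0 counts, a bound against 3 counts over the group is given. Some members of the lists are not reported here.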

Additional observations from a re-analysis of the deposited data

Results flagged for a closer look

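Within each group the highest or lowest library was compared with the gap expected in a sample of that size (Dixon's criterion), for the named genes. Of 184 sets of values 14 held a library that stood apart, 8 among TNFΔARE and 6 among wild-type libraries with inhibitor, and chance alone gives about 1 in 20.

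Replicate 6 of the TNFΔARE inhibitor group stood apart in 5 genes. It was low in inflammatory genes, at 9.93 CPM for S100a9 (25.9 to 35.4 CPM in the other 5 libraries) and 196 CPM for Saa3 (313 to 366 CPM in the others). It was high in Anxa8, an annexin gene of regenerating epithelium, at 29.0 CPM (4.03 to 8.49 CPM in the others), in the peroxisomal thiolase gene Acaa1b at 7.25 CPM (0.480 to 1.76 CPM) and in Abcd2 at 17.6 CPM (4.64 to 6.48 CPM).

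Replicate 1, the library that shared the wild-type batch, stood apart in 3 genes. It had 8.33 CPM of the bile acid exporter gene Slc51a (12.8 to 14.7 CPM in the other 5), 2.22 CPM of the tight junction gene Cldn1 (4.35 to 5.34 CPM) and 4.54 CPM of the transcription factor gene Onecut2 (1.51 to 2.40 CPM).

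Among wild-type inhibitor libraries, replicate 4 stood apart in 4 genes. It had 16.0 CPM of Nfkbie (5.68 to 8.64 CPM in the other 4), 0.810 CPM of Ccl2 (0.189 to 0.254 CPM) and 35.8 CPM of the somatostatin gene Sst (20.2 to 24.6 CPM), and it held the single count of the keratin gene Krt16, at 0.0900 CPM against 0 in the others. Replicate 3 had 1.04 CPM of Anxa8 (0.0829 to 0.360 CPM) and 42.2 CPM of Gstm1 (26.4 to 30.7 CPM).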

How the results depend on the processing

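The count of called genes moved with the handling of batch. From 1667 genes it changed to 4374 without a batch term, 368 in batch 2 alone, 5167 with the 2 inhibitor groups alone and no batch term, 4749 for TNFΔARE of batch 3 against wild type of batch 2, and 298 without the libraries that held Car1, with 352 against a fold-change minimum of 2. Leaving out 1 library gave 310 to 1904 genes: 310 without TNFΔARE inhibitor replicate 1 and 780 without TNFΔARE vehicle replicate 5. The share of higher genes was 62.3%, against 86.7% in batch 2 alone, 85.2% with the fold minimum, 82.2% without the Car1 libraries, 75.3% without vehicle replicate 5 and 50.9% with the 2 groups alone and no batch term. With vehicle, 2157 genes changed to 353 with the fold minimum, 518 without the Car1 libraries and 1594 to 2517 with 1 library left out. The interaction gave 3 genes in batch 2 alone, 3 by DESeq2, 2 without the Car1 libraries and 0 to 1 with 1 library left out (1 without TNFΔARE vehicle replicate 5 and 1 without wild-type vehicle replicate 3). The batch term, with 0 genes called by edgeR and 629 at an unadjusted p under 0.05, gave 2 by limma-voom, 5 by DESeq2, 2 without the Car1 libraries and 0 to 1 with 1 library left out. With the replicate block 824 genes were called (549 higher, 275 lower); numbers did not pair the samples, since 0 of 5 same-numbered pairs correlated above 0.1 and 1 of 5 libraries matched its own number best. Of 89 called named genes none reversed under these alternatives, 33 kept the call in batch 2 alone, 54 with the block, 30 of 88 without TNFΔARE inhibitor replicate 1, 46 without TNFΔARE vehicle replicate 5, 31 without the Car1 libraries, and 26 kept it whichever library was left out. Without TNFΔARE vehicle replicate 5, or without the Car1 libraries, batch 3 held TNFΔARE inhibitor libraries only. The fold change then rested on TNFΔARE inhibitor replicate 1. Without that replicate, the batch effect came from the TNFΔARE vehicle libraries alone. Apart from this and from fewer libraries or genes tested, the cause was not tested. Depth limits genes near 1 CPM, where a wild-type group held few counts.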

Other observations

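In what follows, replicate 1 is that of the TNFΔARE inhibitor group. Of 13 tested prostaglandin genes 4 rose (30.8%, beside 7.23% of all genes tested) and 1 fell (7.69%, beside 4.37%). Summed, the list was lower in TNFΔARE, at 379 to 485 CPM, than in wild type, at 512 to 643 CPM. The number that rose was 0 in batch 2 alone, 0 without replicate 1 and 0 without the libraries that held Car1, and the number that fell 0 in batch 2 alone, 0 without replicate 1 and 1 without the libraries that held Car1. Beside Ptgs2, the synthase genes Ptges (log2 fold change 1.53, SE 0.39, adjusted p = 0.013, but 0.174 in batch 2 alone and 0.24 without replicate 1) and Hpgds (log2 fold change 1.14, SE 0.30, adjusted p = 0.0157, but 0.11 in batch 2 alone and 0.5 without replicate 1) and the receptor gene Ptger2 (log2 fold change 1.40, SE 0.42, adjusted p = 0.0354, but 0.335 in batch 2 alone and 0.218 without replicate 1) rose. Hpgd, which encodes the enzyme that breaks prostaglandins down, fell, at lowest 95.9, median 133 and highest 161 CPM in TNFΔARE and 243, 305, 399.9, 261 and 342 CPM in wild type (log2 fold change -1.45, SE 0.32, adjusted p = 0.00513, but 0.0972 in batch 2 alone and 0.131 without replicate 1). Among clock genes, Bhlhe41, a repressor of the clock, rose (log2 fold change 2.06, SE 0.55, adjusted p = 0.0188, but 0.183 in batch 2 alone and 0.243 without replicate 1) and Nr1d2, a nuclear receptor of the clock, fell (log2 fold change -1.03, SE 0.25, adjusted p = 0.0109, but 0.0914 in batch 2 alone and 0.199 without replicate 1).

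Among regional transcription factor genes, Onecut2 rose (log2 fold change 4.01, SE 0.54, adjusted p = 9.12e-05, but 0.082 without replicate 1) and Hoxb6 fell (log2 fold change -1.04, SE 0.31, adjusted p = 0.0352, but 0.201 in batch 2 alone and 0.303 without replicate 1). Of 187 tested genes within 5 Mb of Tnf on chromosome 17, 21 were called higher and 14 lower, a share of 18.7% against 11.6% of all genes tested. The difference between these shares was not tested.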
